A study of Saccharomyces cerevisiae with 12 samples.

Results

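GCN4 and 36 genes of amino acid biosynthesis were examined in budding yeast with and without the mitochondrial protein Ups1. These 37 genes were taken by systematic name from the 7110 features of the count table, as a list of pathways. They comprise the regulator GCN4, 7 genes of histidine synthesis, 8 of branched-chain amino acid synthesis, 9 of aromatic amino acid synthesis, 5 of the aspartate family and 7 of arginine synthesis. Lysine and sulfur amino acid genes are not on the list.

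RNA was measured in 12 libraries, which form 4 groups of 3 biological replicates of strain S288c in synthetic complete glucose medium. The groups were ups1-null (ups1Δ) cells treated for 3 h with tunicamycin at 1 μg/ml, untreated ups1Δ cells, wild-type cells with the same tunicamycin treatment, and untreated wild-type cells. Ups1 carries phosphatidic acid between the mitochondrial membranes, and tunicamycin blocks protein glycosylation and causes protein stress in the endoplasmic reticulum (ER). The labels give no marker alleles or mating type, and they name no vehicle for the untreated cells. The study asked how loss of Ups1 affects stress signaling. The design gives the difference between the genotypes at each treatment, the effect of tunicamycin in each genotype, and the difference between the responses of the genotypes.

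The libraries held between 4650828 and 7101983 counts each, with a median of 4936531. UPS1 had between 0 and 2 counts in the 6 ups1Δ libraries and between 185 and 427 in the 6 wild-type libraries. LYS2 and MET17 had at least 1250 and 1168 counts in every ups1Δ library and 0 in every wild-type library, whereas LEU2 and URA3 had 0 counts in all 12. The alpha-factor gene MF(ALPHA)1 had between 5159 and 9482 counts in ups1Δ libraries and between 2 and 6 in wild-type libraries, and the a-cell receptor gene STE2 had between 29 and 57 in ups1Δ libraries and between 2406 and 7369 in wild-type libraries. A difference between the genotypes is therefore also a difference in mating type and in the LYS2 and MET17 markers, and these cannot be told apart here. Untreated ups1Δ replicate 3 stood farthest from the other replicates of its group (SD of the log2 difference 0.404 over genes), followed by wild-type tunicamycin replicate 2 (0.357), and the other 10 libraries lay between 0.234 and 0.295. STE2 had 2406 counts in that wild-type replicate 2, against 5733 and 7369 in replicates 1 and 3.

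Gcn4 is a transcription factor of the basic leucine zipper family that activates amino acid biosynthesis genes when amino acids run short, a response called general amino acid control. Its level is set mainly by translation, through short upstream reading frames in the GCN4 mRNA and the kinase Gcn2, and by protein turnover, so the GCN4 mRNA need not follow its activity. Many of its targets also answer to regulators of their own pathway, such as Leu3 for leucine, Bas1 for histidine and the ArgR/Mcm1 complex for arginine. ER stress is known to draw on this response in yeast.

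The core of the Gcn4 binding site was searched in the 300 bases before each start codon, as the letters TGACTC on either strand. A match was present for 26 of the 37 genes (70.3%), against 465 of 6006 windows of the same length before protein-coding genes (7.74%). The longer form TGACTCA, whose matches are all also matches of TGACTC, was present for 17 genes (45.9%), against 2.61% of all windows. In a window of 500 bases, a length added after the data were seen, 29 genes had TGACTC (78.4%), against 12.6% of all windows. The 11 genes with no match in 300 bases were GCN4, HIS2, ILV2, LEU1, TRP5, ARO2, ARO3, ARO4, ARO7, HOM6 and ARG3. A match describes the letters only and does not show that Gcn4 binds there. The stretches below are shown because their genes were among those whose responses differed most between the genotypes, or form an isoenzyme pair. They come from the RefSeq R64 genome, which sacCer3 represents, and read 5′ to 3′ on the coding strand of each gene, with matches to TGACTC or its reverse complement in capitals. HIS4 had 3 matches, and the first stretch given for it holds 2 of them.
ARG56, chrV:295175-295204, plus strand: ttcttatccgaaTGACTCagtctacatcaa
ARG56, chrV:295221-295250, plus strand: ggtggtaattgaTGACTCttctattttttt
ARG4, chrVIII:141564-141593, minus strand: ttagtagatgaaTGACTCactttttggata
HIS4, chrIII:68559-68588, minus strand: TGACTCtaatagTGACTCcggtaaattagt
HIS4, chrIII:68515-68544, minus strand: acccatgcacagTGACTCacgtttttttat
HIS5, chrIX:142714-142743, plus strand: tcttggatctgtTGACTCacttcaattgat
LEU4, chrXIV:426838-426867, minus strand: cttacgtgtaagTGACTCagttctttcaaa
LEU9, chrXV:522758-522787, plus strand: ggtcgtagtgaaTGACTCatatttttccat

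LEU1, the gene with the largest fall in wild-type cells, had no TGACTC in its 300 bases and 1 match in 500 bases. Its window held CCGGNNCCGG, the motif of the leucine regulator Leu3, which was found before no other gene of the list and in 9 of 6006 windows (0.150%). In 500 bases it was found before ILV2 and ILV5 too, or 3 of the 37 genes, against 16 of 6005 windows (0.266%). This motif was searched after the fall of LEU1 had been seen, and in the stretch below its letters are in capitals.
LEU1, chrVII:478850-478879, minus strand: aacgaaaattCCGGGACCGGcgaaatttgc

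Levels are given as CPM, the counts of a gene scaled to a common depth, for which each total was first multiplied by its normalization (TMM) factor from the 12 libraries. All 37 genes passed the filter on low counts in every comparison, and the lowest count of any of them in a library was 129 (ARG3). Within groups, many of the genes were lowest in the same library. Of the 22 genes that rose with tunicamycin in wild-type cells, all 22 were lowest in replicate 2 of the 3 treated wild-type libraries, as were 8 of the 11 genes that fell. In untreated ups1Δ cells, 33 of the 37 genes were lowest in replicate 3, and in treated ups1Δ cells 35 were lowest in replicate 2. The same counts were not made over all features, so this order may not be particular to these genes. Treated wild-type replicate 2 and untreated ups1Δ replicate 3 were also the libraries farthest from their groups. In bulk RNA, fewer cells that express a gene and less of its RNA per cell cannot be told apart.

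**Figure D1:**
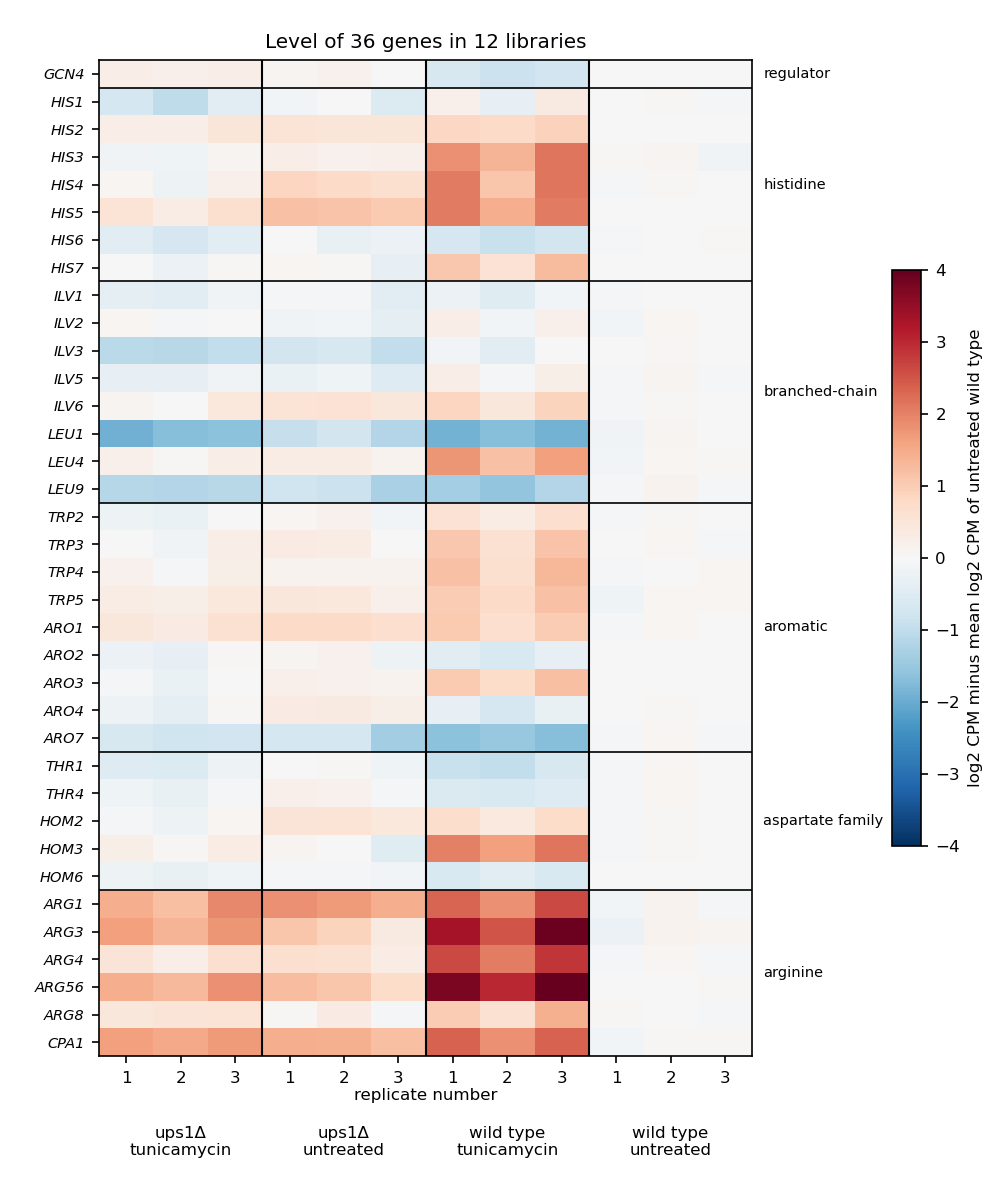
Level of 36 of the genes (lines, by pathway) in the 12 libraries (columns, by group and replicate number), as log2 CPM minus the mean log2 CPM of untreated wild-type cells. Treated wild-type libraries stand out in the arginine genes other than ARG1 and in HIS3, HIS4, HIS5, LEU4 and HOM3. In ARG1, treated wild-type replicate 2 (1.82) lies below untreated ups1Δ replicate 1 (1.83) and treated ups1Δ replicate 3 (1.91). LEU1, LEU9 and ARO7 are lower in all 9 other libraries than in untreated wild-type cells.

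The 37 genes together held 1.58%, 1.48% and 1.75% of all counts in ups1Δ cells with tunicamycin and 1.74%, 1.75% and 1.51% in untreated ups1Δ cells. They held 3.64%, 2.66% and 3.95% in wild-type cells with tunicamycin and 1.35%, 1.46% and 1.42% in untreated wild-type cells. The 3 treated wild-type libraries lay above the 9 others, which lay close together. The arginine genes alone held between 0.295% and 0.383% of counts in treated ups1Δ cells and between 0.250% and 0.315% in untreated ups1Δ cells. Their share was between 0.795% and 1.36% in treated and between 0.117% and 0.130% in untreated wild-type cells.

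GCN4 (YEL009C), on chromosome V from 138918 to 139763, was at 1166, 1127 and 1161 CPM in ups1Δ cells with tunicamycin and at 1045, 1094 and 976 CPM in untreated ups1Δ cells. It was at 619, 540 and 570 CPM in wild-type cells with tunicamycin and at 952, 975 and 990 CPM in untreated wild-type cells. The treated wild-type libraries were the lowest 3 of the 12, and those of treated ups1Δ cells the highest 3. GCN4 mRNA thus fell with tunicamycin in wild-type cells, by 0.78 on the log2 scale (SE 0.11, adjusted p = 1.16e-04 in edgeR's quasi-likelihood test). With library size as the only scaling, the log2 fold change was -0.26 and not past the threshold (adjusted p = 0.0561), a scaling that put the all-feature median at 0.57, against 0.05 with TMM. As a share of all counts, GCN4 held between 0.0662% and 0.0760% in treated and between 0.0829% and 0.0869% in untreated wild-type libraries. In ups1Δ cells the log2 fold change of GCN4 with tunicamycin was 0.16 (SE 0.07, adjusted p = 0.132), although the 2 groups did not overlap. The difference between the responses was 0.90 (SE 0.12, adjusted p = 2.12e-05), and 0.52 with library size only (adjusted p = 0.00159). Between the genotypes, GCN4 was higher in ups1Δ than in wild-type cells with tunicamycin (log2 fold change 1.00, SE 0.12, adjusted p = 5.14e-05), and without it the difference was 0.13 (SE 0.07, adjusted p = 0.147). That difference was past the threshold without untreated ups1Δ replicate 3 (0.16, adjusted p = 0.00935) and with library size only (0.18, adjusted p = 0.0426), as was the response in ups1Δ cells with library size only (0.26, adjusted p = 0.0168).

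To ask how these genes respond to ER stress, tunicamycin-treated wild-type cells were compared with untreated wild-type cells. Of the 37 genes, 22 rose and 11 fell (adjusted p under 0.05), against 39.4% of all 5785 features tested that rose and 36.97% that fell, or 76.4% in either direction. Each of these 33 genes had groups that did not overlap, which was so for 41.5% of features higher and 38.6% lower with tunicamycin. A change of at least 1 on the log2 scale was reached by 13 genes that rose and 3 that fell, against 17.9% and 17.1% of features. The median log2 fold change was 0.82 over the 37 genes and 0.05 over all features. The share of lower among all called features was 48.4%, and 25.9% with library size only. Under that scaling 25 of the genes rose and 5 fell, the median of the genes was 1.34, and ARO2, ARO4 and ILV1, which had fallen, had values above 0 (0.032, 0.072 and 0.23) that were not past the threshold.

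The arginine genes had the largest rises. All 7 rose, with log2 fold changes between 1.04 and 3.62 and a median of 2.53. ARG56 (ARG5,6; YER069W, chromosome V from 295410 to 298001), whose product is processed into the mitochondrial acetylglutamate kinase and reductase of ornithine synthesis, was at 1638, 978 and 1896 CPM with tunicamycin and at 118, 120 and 124 CPM without. Its lowest treated library was far above its highest untreated one, and it rose by 3.62 on the log2 scale (SE 0.24, adjusted p = 8.32e-07). ARG3 (YJL088W), encoding ornithine carbamoyltransferase, was at 335, 192 and 508 CPM with tunicamycin and at 28.6, 37.1 and 36.1 CPM without. Replicate 2 was the lowest of the treated libraries here too, and the rise was 3.32 (SE 0.35, adjusted p = 6.20e-05).

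CPA1 (YOR303W), a subunit of the carbamoyl phosphate synthetase of arginine synthesis, was at 1242, 847 and 1226 CPM with tunicamycin and at 225, 248 and 250 CPM without. It rose by 2.18 on the log2 scale (SE 0.16, adjusted p = 1.28e-06). ARG4 (YHR018C), encoding argininosuccinate lyase, was at 2413, 1627 and 2835 CPM with tunicamycin and at 380, 411 and 382 CPM without. ARG1 (YOL058W), encoding argininosuccinate synthase of the step before, was at 1440, 1017 and 1788 CPM with tunicamycin and at 268, 319 and 282 CPM without. These last enzymes of the pathway rose by 2.53 (SE 0.20, adjusted p = 1.79e-06) and 2.27 (SE 0.20, adjusted p = 4.46e-06) on the log2 scale. ARG8 (YOL140W), encoding acetylornithine aminotransferase, had the smallest rise of the group. It was at 101, 75.9 and 135 CPM with tunicamycin and at 51.2, 49.6 and 48.5 CPM without (log2 fold change 1.04, SE 0.18, adjusted p = 7.38e-04).

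Of the 7 histidine genes, 5 rose and 1, HIS6 (the isomerase of the pathway), fell by 0.78 (SE 0.10, adjusted p = 7.68e-05). HIS4 (YCL030C), a multifunctional enzyme that includes histidinol dehydrogenase, was at 2685, 1378 and 2812 CPM with tunicamycin and at 606, 665 and 656 CPM without. HIS5 (YIL116W), encoding histidinol-phosphate aminotransferase, was at 574, 376 and 579 CPM with tunicamycin and at 136, 135 and 138 CPM without. HIS3 (YOR202W), encoding imidazoleglycerol-phosphate dehydratase, was at 319, 232 and 397 CPM with tunicamycin and at 92.8, 97.8 and 82.0 CPM without. In all 3 genes the treated libraries lay above every untreated one, with replicate 2 lowest. The log2 fold changes were 1.81 (SE 0.25, adjusted p = 1.07e-04) for HIS4, 1.88 (SE 0.16, adjusted p = 4.00e-06) for HIS5 and 1.78 (SE 0.18, adjusted p = 1.76e-05) for HIS3. HIS3 is a common marker gene in laboratory strains, and its counts here were between 408 and 586 in ups1Δ and between 409 and 2361 in wild-type libraries. HIS7 and HIS2 rose by 0.98 and 0.82. HIS1, encoding the first enzyme of the pathway, was not past the threshold, at 522 ± 120 CPM with tunicamycin and 484 ± 16.6 CPM without (SD, n = 3 each).

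The branched-chain genes moved in both directions, with 2 that rose, 3 that fell and a median log2 fold change of -0.04. LEU1 (YGL009C), encoding isopropylmalate isomerase of the leucine branch, was at 374, 424 and 378 CPM with tunicamycin and at 1266, 1502 and 1409 CPM without. It had the largest fall of the 37 genes, -1.85 (SE 0.13, adjusted p = 6.99e-07), and every treated library was under every untreated one. ILV6, the regulatory subunit of acetolactate synthase, rose by 0.72 (SE 0.13, adjusted p = 6.75e-04). Its catalytic partner ILV2 was not past the threshold, at 699 ± 95.8 CPM with tunicamycin and 640 ± 40.7 CPM without (SD, n = 3 each), and nor were ILV5 (1535 ± 191 CPM with and 1373 ± 79.0 CPM without) and ILV3 (997 ± 158 CPM with and 1120 ± 24.9 CPM without), which encode the next enzymes shared by the valine and isoleucine routes. ILV1, encoding the threonine deaminase that opens the isoleucine route, was called lower (-0.29, SE 0.12, adjusted p = 0.0495 in edgeR). That call was lost without treated replicate 1 (-0.32) and without untreated replicate 1 (-0.32), 2 (-0.29) or 3 (-0.27). It was also lost in a fit of all 12 libraries (-0.27), with at least 10 counts required in every library (-0.28) and with a replicate block (-0.30).

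LEU4 (YNL104C) and LEU9 (YOR108W) encode isoenzymes of α-isopropylmalate synthase, the first enzyme of the leucine branch, and moved in opposite directions. LEU4 was at 1625, 1073 and 1495 CPM with tunicamycin and at 447, 503 and 493 CPM without, and LEU9 was at 122, 106 and 141 CPM with tunicamycin and at 299, 346 and 304 CPM without. In neither gene did the groups overlap. LEU4 rose by 1.52 (SE 0.16, adjusted p = 1.66e-05), and LEU9 fell by 1.39 (SE 0.12, adjusted p = 2.74e-06). Both have a TGACTCA before the start codon, as the stretches above show, at 95 bases in LEU4 and at 251 bases in LEU9. Their coding sequences are 79.3% identical over the aligned bases and share 31 stretches of 31 bases, so that a small part of their reads could have been assigned to either gene.

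ARO3 (YDR035W) and ARO4 (YBR249C) encode isoenzymes of DAHP synthase, the first enzyme of aromatic amino acid synthesis, the ARO3 enzyme being inhibited by phenylalanine and the ARO4 enzyme by tyrosine. ARO3 was at 726, 585 and 806 CPM with tunicamycin and at 344, 346 and 355 CPM without. ARO4 was at 531, 419 and 539 CPM with tunicamycin and at 660, 690 and 654 CPM without. ARO3 rose by 1.00 (SE 0.13, adjusted p = 6.66e-05) and ARO4 was lower by TMM scaling (-0.45, SE 0.12, adjusted p = 0.00749) but not with library size only (0.072). Their coding sequences are 66.3% identical and share no stretch of 31 bases, the longest shared run being 17 bases.

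**Figure D2:**
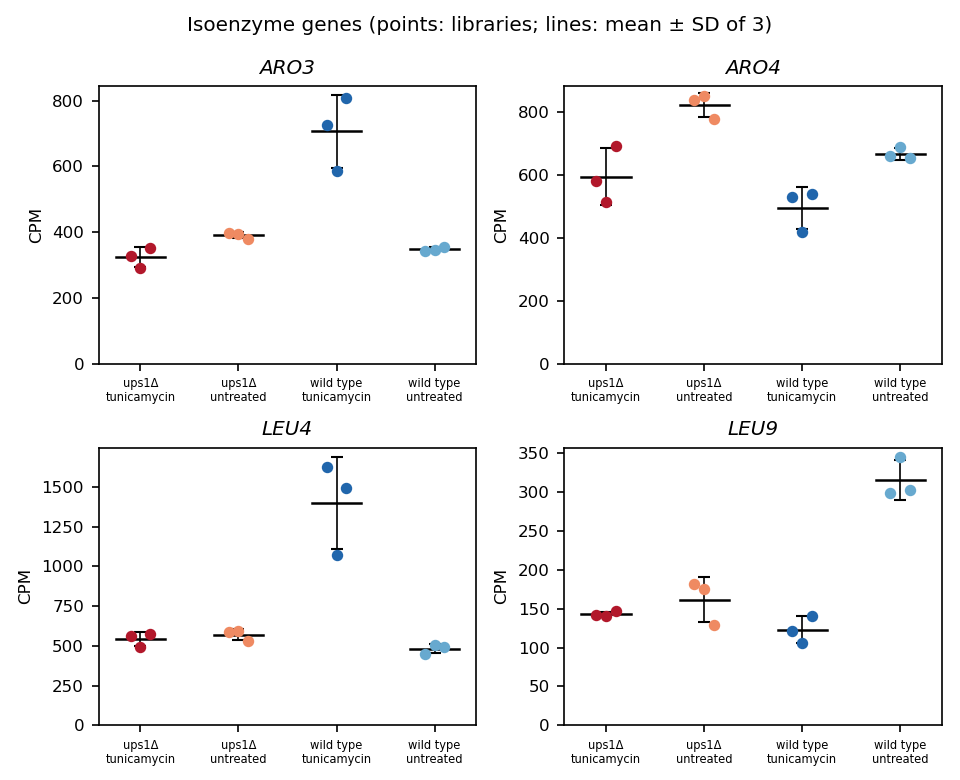
Levels of the isoenzyme genes in CPM (vertical axes, from 0) in the 4 groups, with each library as a point and lines for the mean ± SD of 3 libraries. In treated wild-type cells ARO3 and LEU4 are above every other group, whereas ARO4 and LEU9 are below untreated wild-type cells, and in treated ups1Δ cells ARO3 and LEU4 average 324 and 542 CPM.

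In all, 6 aromatic genes rose and 3 fell, with a median of 0.89. The 4 tryptophan genes rose by between 0.50 (TRP2, a subunit of anthranilate synthase) and 1.05 (TRP4, anthranilate phosphoribosyltransferase), and ARO1, encoding a pentafunctional enzyme of the shikimate pathway, rose by 0.89 (SE 0.13, adjusted p = 1.04e-04). ARO7 (YPR060C), encoding chorismate mutase, the branch enzyme toward phenylalanine and tyrosine, was at 29.9, 33.0 and 28.4 CPM with tunicamycin and at 89.7, 99.5 and 91.0 CPM without. Its groups lay far apart, and it fell by 1.64 (SE 0.10, adjusted p = 2.68e-07). ARO2, encoding the chorismate synthase before this branch, was called lower (-0.49, SE 0.11, adjusted p = 0.00221) but not with library size only (0.032).

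The aspartate family was split by position in the pathway. HOM3 (YER052C), encoding the aspartate kinase at its start, and HOM2, encoding the enzyme of the next step, rose by 1.92 (SE 0.14, adjusted p = 1.17e-06) and 0.59 (SE 0.12, adjusted p = 0.00163). The 3 genes of the later steps to threonine fell, namely HOM6 (-0.57, SE 0.10), THR1 (-0.85, SE 0.11) and THR4 (-0.58, SE 0.11). THR1, encoding homoserine kinase, was at 234, 218 and 278 CPM with tunicamycin and at 408, 455 and 435 CPM without. The calls of HOM6 and THR4 were lost with library size only (-0.05 and -0.06).

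**Figure D3:**
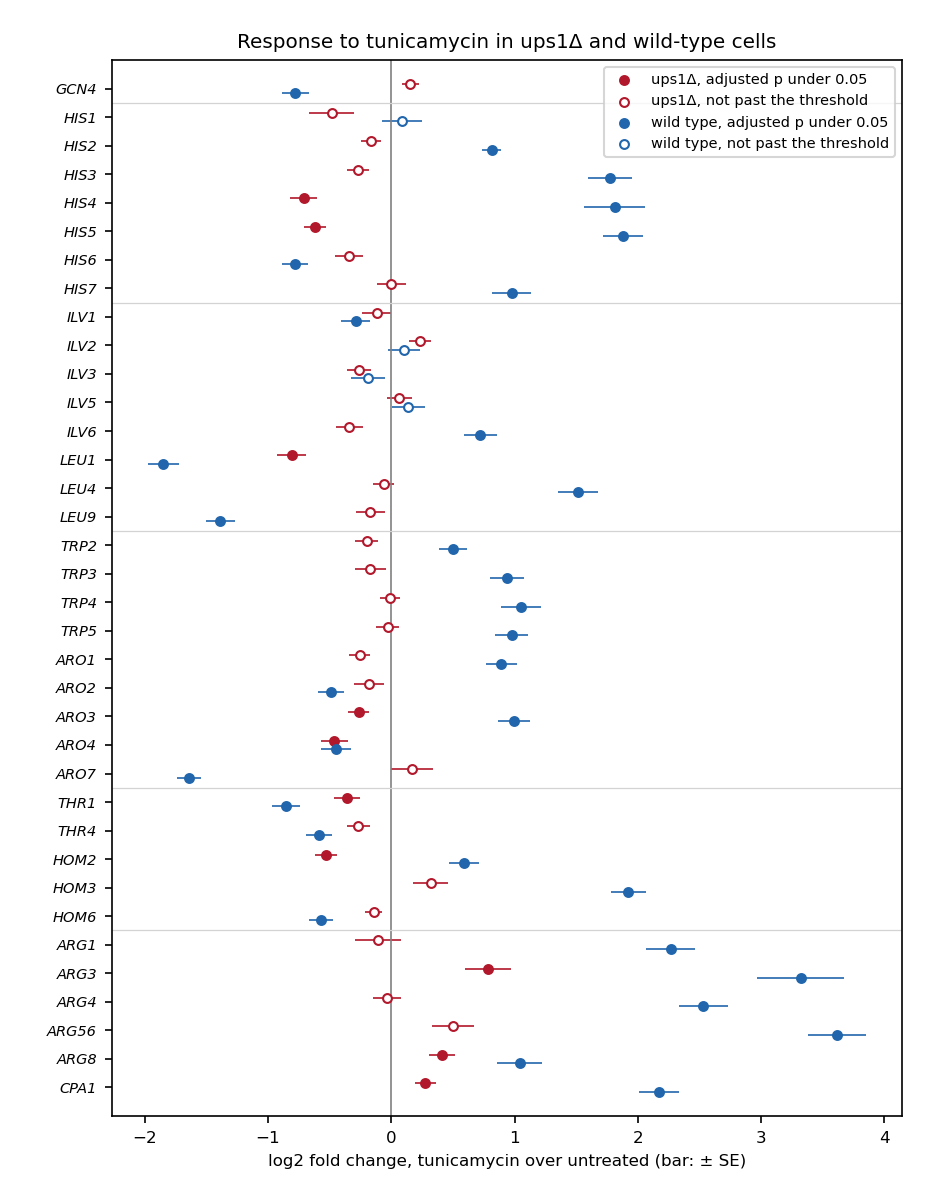
Log2 fold change with tunicamycin (horizontal axis, bars ± SE) of 36 of the genes (by pathway, GCN4 at the top) in ups1Δ and in wild-type cells, with filled points for an adjusted p under 0.05 in edgeR. The wild-type values run from -1.85 for LEU1 to 3.62 for ARG56, whereas the ups1Δ values all lie between -0.81 and 0.79.

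Among the 26 genes with TGACTC in the 300-base window, 18 rose in treated wild-type cells, 5 fell and 3 were not past the threshold, with a median log2 fold change of 0.96. Among the 11 genes without it, 4 rose, 6 fell and 1 was not past the threshold, with a median of -0.45. The exceptions on both sides were large. ARG3, with no match in 300 bases and 2 in 500 bases, rose by 3.32, and LEU9, with a TGACTCA, fell by 1.39. HIS1, with 2 matches, was among the 3 genes with a match that were not past the threshold. No test was made of this division, and the part of Gcn4 in it was not tested.

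**Figure D4:**
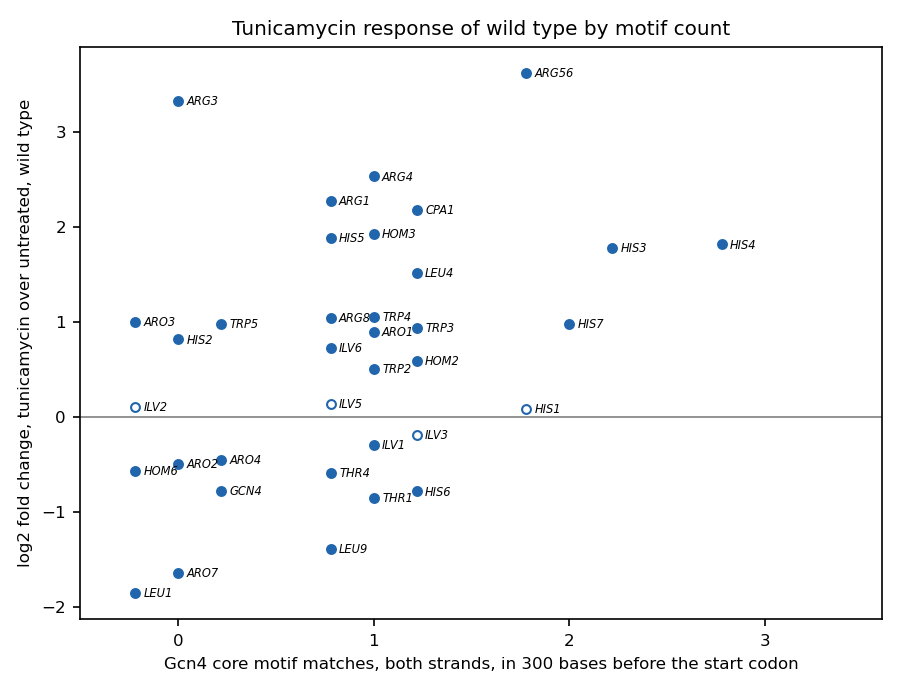
Log2 fold change with tunicamycin in wild-type cells (vertical axis) against the number of Gcn4 core motif matches on either strand in the 300 bases before the start codon (horizontal axis, points of 1 number set side by side), with filled points for an adjusted p under 0.05. ARG3 stands high at 0 matches and LEU9 low at 1 match, whereas HIS4, with 3 matches, rose by 1.81.

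The same treatment was then read in ups1Δ cells. Of the 37 genes, 3 rose and 7 fell, against 15.2% of all 5700 features tested that rose and 11.9% that fell, or 27.1% in either direction, so that the number of genes called was close to the share of all features. None of the 37 genes changed by 1 or more on the log2 scale in this comparison, against 2.49% of features that rose and 0.895% that fell by that much. The median log2 fold change was -0.16 over the 37 genes and 0.01 over all features. The groups did not overlap for 6 genes higher and 12 lower with tunicamycin, against 25.3% and 21.1% of features. The counts rested on single libraries. They were 3 higher and 17 lower without untreated replicate 3, 0 and 11 without treated replicate 3, 0 and 4 without treated replicate 1, 1 and 4 without treated replicate 2, and 1 and 5 without untreated replicate 1 or without untreated replicate 2. Of the 10 calls, 4 (HIS4, HIS5, LEU1 and HOM2) were kept under every alternative tried with the same threshold. With library size only, 7 genes rose and 5 fell, and the share of lower among all called features was 22.5% instead of 44.0%.

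The 3 genes that rose were arginine genes. ARG3 was at 104, 86.1 and 115 CPM with tunicamycin and at 72.1, 62.3 and 43.3 CPM without (log2 fold change 0.79, SE 0.19, adjusted p = 0.0193). ARG8 was at 68.5, 71.6 and 73.2 CPM with tunicamycin and at 51.0, 62.1 and 47.9 CPM without (0.41, SE 0.11, adjusted p = 0.0203). CPA1 was at 757, 692 and 790 CPM with tunicamycin and at 654, 643 and 560 CPM without (0.28, SE 0.09, adjusted p = 0.0416). The groups of each did not overlap, but each call depended on single libraries. The call of ARG3 was lost without untreated replicate 2 (0.82, adjusted p = 0.0532) and without treated replicates 1 (0.77) or 3 (0.69). That of ARG8 was lost without untreated replicate 1 (0.37) and without treated replicates 1 (0.44), 2 (0.41) or 3 (0.39), and that of CPA1 without each library except untreated replicate 3 (0.23 to 0.33). ARG56 was at 328, 297 and 428 CPM with tunicamycin and at 285, 262 and 199 CPM without, which did not overlap but was not past the threshold (adjusted p = 0.0692). ARG4 (561, 474 and 605 CPM with tunicamycin and 612, 594 and 483 CPM without) and ARG1 (783, 670 and 1088 CPM with and 1024, 941 and 783 CPM without) had overlapping groups.

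LEU1 had the largest fall in ups1Δ cells too, at 364, 428 and 444 CPM with tunicamycin and at 726, 832 and 616 CPM without (log2 fold change -0.81, SE 0.12, adjusted p = 0.00186). HIS4 was at 675, 554 and 744 CPM with tunicamycin and at 1152, 1101 and 991 CPM without (-0.71, SE 0.11, adjusted p = 0.00232). HIS5 was at 197, 167 and 211 CPM with tunicamycin and at 304, 298 and 284 CPM without (-0.62, SE 0.09, adjusted p = 0.00166). These histidine genes therefore fell in ups1Δ cells under the treatment with which they rose in wild-type cells. HIS3 was at 81.7, 81.0 and 98.1 CPM with tunicamycin and at 108, 102 and 105 CPM without, which was not past the threshold (adjusted p = 0.0524). Of the aspartate family, HOM2 fell by 0.53 (SE 0.09, adjusted p = 0.00310), and THR1 was at 304, 294 and 378 CPM with tunicamycin and at 431, 442 and 383 CPM without (-0.36, SE 0.11, adjusted p = 0.0369). The call of THR1 was lost without untreated replicates 1 (-0.34) or 2 (-0.32) and without treated replicates 1 (-0.31) or 2 (-0.29).

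Both DAHP synthase genes fell in ups1Δ cells. ARO4 was at 580, 513 and 692 CPM with tunicamycin and at 839, 850 and 779 CPM without (log2 fold change -0.46, SE 0.11, adjusted p = 0.0139). ARO3 was at 328, 292 and 352 CPM with tunicamycin and at 397, 396 and 380 CPM without (-0.26, SE 0.08, adjusted p = 0.0420). The call of ARO4 was lost without treated replicates 1 (-0.44) or 2 (-0.37), and that of ARO3 without treated replicates 1 (-0.27) or 2 (-0.20) and untreated replicates 1 (-0.26) or 2 (-0.26). The leucine isoenzymes and ARO7 were not past the threshold. LEU4 was at 559, 494 and 573 CPM with tunicamycin and at 586, 591 and 528 CPM without, and LEU9 was at 142, 141 and 147 CPM with tunicamycin and at 182, 175 and 129 CPM without. ARO7 was at 59.7, 53.9 and 54.4 CPM with tunicamycin and at 57.0, 57.5 and 35.7 CPM without, where untreated replicate 3 stood under all others.

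The difference between these responses was tested as the interaction of genotype and tunicamycin over all 12 libraries, in which a negative value means a lower response in ups1Δ than in wild-type cells. The test was past the threshold in 29 of the 37 genes, 7 with a higher and 22 with a lower response in ups1Δ cells, against 32.9% and 33.2% of all 5828 features tested, or 66.04% in either direction. A difference of at least 1 on the log2 scale was reached by 3 genes with a higher and 20 with a lower response, against 16.3% and 16.8% of features. The median was -1.01 over the 37 genes and -0.03 over all features. Without treated wild-type replicate 2 and untreated ups1Δ replicate 3, which stood farthest from their groups, the counts were 5 higher and 24 lower, a choice made after the data were seen. With library size only they were 4 and 26, the median of all features was -0.42, and the share of lower among all called features was 70.6% instead of 50.2%.

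All 7 arginine genes had a lower response in ups1Δ cells, with a median of -2.57. Among them were ARG56 (-3.14, SE 0.32, adjusted p = 3.09e-06), ARG4 (-2.59, SE 0.24, adjusted p = 6.69e-07) and ARG3 (-2.57, SE 0.48, adjusted p = 8.36e-04). The smallest was that of ARG8 (-0.66, SE 0.23, adjusted p = 0.0242), whose call was lost without untreated ups1Δ replicate 2 (-0.53), untreated wild-type replicate 2 (-0.65) or untreated wild-type replicate 3 (-0.63). Lower responses were also found for 5 histidine genes, 6 aromatic genes including ARO3 (-1.29, SE 0.16) and all 4 tryptophan genes, HOM2 and HOM3, and LEU4 and ILV6. Higher responses in ups1Δ cells were found for genes that had fallen in wild-type cells, with the largest for ARO7 (1.78, SE 0.20, adjusted p = 3.83e-06), LEU9 (1.19, SE 0.18, adjusted p = 4.68e-05) and LEU1 (1.01, SE 0.17, adjusted p = 1.42e-04). GCN4, THR1, HIS6 and HOM6 were the other genes with a higher response, of which THR1, HIS6 and HOM6 missed the threshold with library size only (0.074, 0.024 and 0.012). The call of THR1 (0.46) was also lost without treated ups1Δ replicate 3 (0.35) or untreated wild-type replicate 2 (0.44), and that of HIS6 (0.41) without treated ups1Δ replicates 1 (0.38) or 3 (0.38), untreated ups1Δ replicate 2 (0.37), treated wild-type replicate 2 (0.36) or untreated wild-type replicate 3 (0.41).

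**Figure D5:**
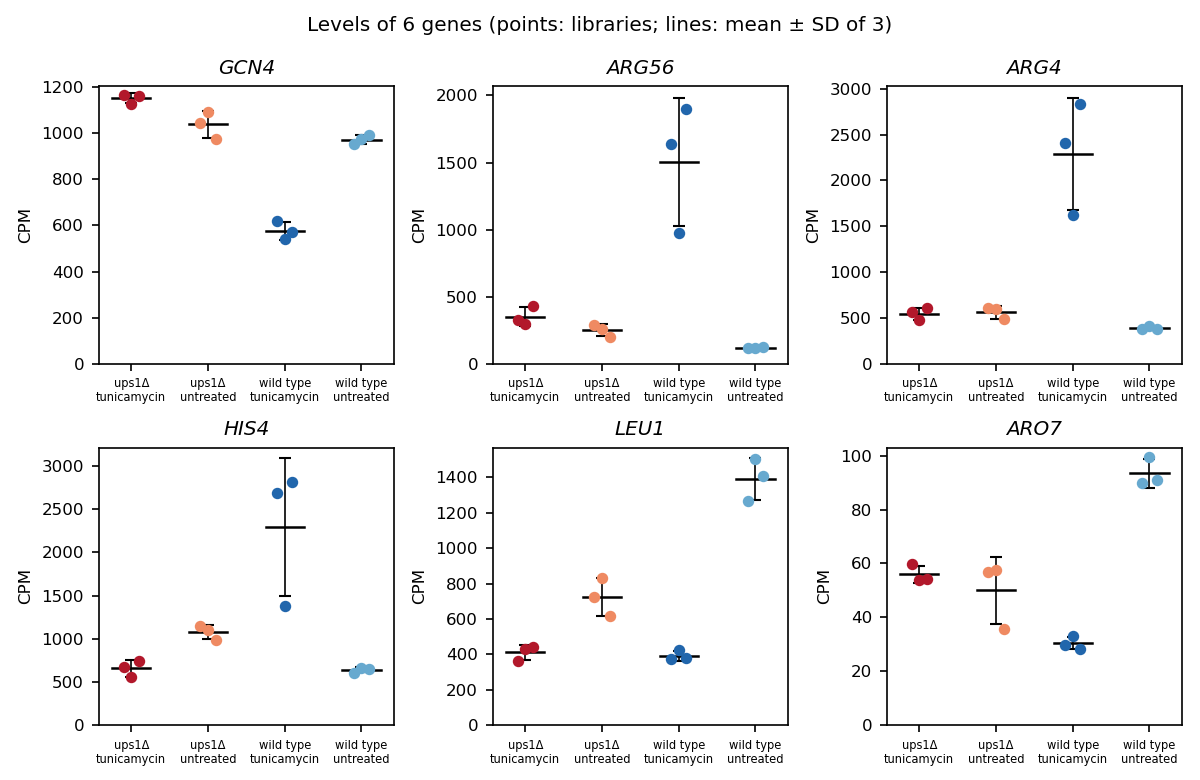
Levels of GCN4, ARG56, ARG4, HIS4, LEU1 and ARO7 in CPM (vertical axes, from 0) in the 4 groups, with each library as a point and lines for the mean ± SD of 3 libraries. ARG56 and ARG4 averaged 351 and 547 CPM in treated ups1Δ cells and 1504 and 2291 CPM in treated wild-type cells, while GCN4 averaged 1151 CPM in treated ups1Δ cells and 576 CPM in treated wild-type cells.

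Untreated ups1Δ cells were then compared with untreated wild-type cells, from which they also differed in mating type and in the LYS2 and MET17 markers. Of the 37 genes, 17 stood higher and 5 stood lower in ups1Δ than in wild-type cells, against 26.5% and 25.8% of all 5692 features tested, or 52.3% in either direction. The median log2 fold change was 0.17 over the 37 genes and 0.02 over all features. The groups did not overlap for 19 genes higher and 6 lower in ups1Δ cells, against 32.6% and 31.5% of features. A difference of at least 1 on the log2 scale was reached by 5 genes that were higher and 0 that were lower, against 6.24% and 2.11% of features. With library size only, 20 genes were higher and 4 lower, and the share of lower among all called features was 41.7% instead of 49.4%. The comparison shares the untreated wild-type libraries with the response of wild-type cells and the untreated ups1Δ libraries with that of ups1Δ cells.

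The arginine genes again stood first, with 6 of 7 higher in ups1Δ cells and a median of 1.07. ARG1 averaged 916 ± 123 CPM in ups1Δ and 290 ± 26.7 CPM in wild-type cells (SD, n = 3 each), and was higher by 1.69 on the log2 scale (SE 0.11, adjusted p = 9.16e-06). CPA1 averaged 619 ± 51.7 CPM in ups1Δ and 241 ± 14.1 CPM in wild-type cells (1.39, SE 0.08, adjusted p = 5.51e-06). ARG56 (1.07), ARG3 (0.83) and ARG4 (0.56) were also higher, and ARG8 was at 53.7 ± 7.45 CPM in ups1Δ and 49.8 ± 1.33 CPM in wild-type cells, not past the threshold (adjusted p = 0.309). The mean untreated ups1Δ levels of ARG1, CPA1 and ARG56 lay between the means of untreated and treated wild-type cells, although ARG1 reached 1024 CPM in an untreated ups1Δ library and was at 1017 CPM in the lowest treated wild-type library. No histidine gene was lower in ups1Δ cells, and 4 were higher, among them HIS5 (1.15, SE 0.06, adjusted p = 2.01e-06) and HIS4 (0.78, SE 0.08, adjusted p = 1.24e-04).

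The 5 genes that were lower in untreated ups1Δ cells were LEU9, LEU1, ILV3 and ILV5 of the branched-chain pathway and ARO7. LEU9 averaged 162 ± 28.7 CPM in ups1Δ and 316 ± 25.8 CPM in wild-type cells (log2 fold change -0.94, SE 0.13, adjusted p = 6.84e-04). LEU1 averaged 725 ± 108 CPM in ups1Δ and 1392 ± 119 CPM in wild-type cells (-0.91, SE 0.11, adjusted p = 4.07e-04), and ARO7 averaged 50.1 ± 12.5 CPM in ups1Δ and 93.4 ± 5.30 CPM in wild-type cells (-0.87, SE 0.16, adjusted p = 0.00293). These 3 genes also had the largest falls with tunicamycin in wild-type cells, a comparison that uses the same untreated wild-type libraries. Among smaller differences, HIS3 was higher by 0.25 (adjusted p = 0.0344), LEU4 by 0.27 (adjusted p = 0.0162), ARO4 by 0.33 (adjusted p = 0.00326) and ARO3 by 0.20 (adjusted p = 0.0236). The call of HIS3 was lost without untreated ups1Δ replicates 1 (0.23) or 2 (0.27) and untreated wild-type replicates 1 (0.26) or 3 (0.18), and that of LEU4 without untreated ups1Δ replicates 1 (0.25) or 2 (0.24) or untreated wild-type replicate 1 (0.22). That of ARO3 was lost without any library except untreated ups1Δ replicate 3 (0.19 to 0.21). The call of ILV5 (-0.29) was lost without any library except untreated ups1Δ replicates 2 and 3 (-0.32 to -0.24). It was also lost with library size only (-0.23). HIS3 also missed the threshold with DESeq2 (adjusted p = 0.0949). In an edgeR fit of all 12 libraries, 12 genes were higher and 5 lower. There HIS3, LEU4, ARO3, ARO4 (adjusted p = 0.0510) and ARG3 (adjusted p = 0.0883) missed the threshold.

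With tunicamycin, 5 of the 37 genes stood higher and 25 stood lower in ups1Δ than in wild-type cells, against 32.7% and 33.6% of all 5771 features tested, or 66.4% in either direction. The median log2 fold change was -0.66 over the 37 genes and -0.03 over all features. The groups did not overlap for 6 genes higher and 24 lower in ups1Δ cells, against 35.3% and 36.6% of features. A difference of at least 1 on the log2 scale was reached by 11 genes that were lower and 0 that were higher, against 10.1% and 12.7% of features. With library size only, 2 genes were higher and 27 lower, and the share of lower among all called features was 70.6% instead of 50.7%. Without treated ups1Δ replicate 3, 2 genes were higher and 24 lower.

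All 7 arginine genes were lower in treated ups1Δ cells. ARG56 averaged 351 ± 68.6 CPM in ups1Δ and 1504 ± 473 CPM in wild-type cells (SD, n = 3 each), a log2 difference of -2.10 (SE 0.26, adjusted p = 9.64e-05). ARG4 averaged 547 ± 66.8 CPM in ups1Δ and 2291 ± 613 CPM in wild-type cells (-2.07, SE 0.21, adjusted p = 1.76e-05), and HIS3 averaged 87.0 ± 9.66 CPM in ups1Δ and 316 ± 82.8 CPM in wild-type cells (-1.86, SE 0.19, adjusted p = 4.36e-05). ARG1 was called lower (-0.74, SE 0.24, adjusted p = 0.0222) although its groups overlapped, and that call was lost without treated ups1Δ replicates 1 (-0.67) or 2 (-0.58) or treated wild-type replicate 3 (-0.54). The call of ARG8 (-0.55) was lost without treated wild-type replicate 3 (-0.32) and without treated ups1Δ replicates 1 (-0.51), 2 (-0.54) or 3 (-0.55), and that of CPA1 (-0.57) without treated ups1Δ replicate 2 (-0.50). Of the other pathways, 6 histidine, 6 aromatic and 4 branched-chain genes were lower, together with HOM2 (-0.66) and HOM3 (-1.75). Of these, ILV6 (-0.56) and ARO1 (-0.45) were lost without treated ups1Δ replicates 1 (-0.51 and -0.42) or 2 (-0.45 and -0.37), and ILV5 (-0.42) was lost without treated ups1Δ replicates 1 (-0.38) or 2 (-0.37) or treated wild-type replicates 1 (-0.36) or 3 (-0.37). The genes that were higher in treated ups1Δ cells were GCN4, ARO7, THR1, THR4 and HOM6. ARO7 averaged 56.0 ± 3.20 CPM in ups1Δ and 30.4 ± 2.31 CPM in wild-type cells (0.88, SE 0.10, adjusted p = 3.29e-05), and THR1 averaged 325 ± 46.3 CPM in ups1Δ and 244 ± 31.1 CPM in wild-type cells (0.42, SE 0.14, adjusted p = 0.0205). THR1, THR4 (0.39) and HOM6 (0.31) missed the threshold with library size only (0.11, 0.092 and 0.014), nor without treated ups1Δ replicate 3 (0.31, 0.34 and 0.30). The call of THR1 was also lost without treated wild-type replicate 1 (0.39) and that of HOM6 without treated ups1Δ replicate 1 (0.32).

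A further 36 genes of these pathways, of their regulators and of neighboring amino acids were read from the same fits, and 35 were tested since LEU2 had no counts. With tunicamycin 18 rose and 11 fell in wild-type cells, against 39.4% and 36.97% of all features tested. In ups1Δ cells 5 rose and 3 fell, against 15.2% and 11.9% of features. The response was higher for 9 and lower for 20 in ups1Δ than in wild-type cells, against 32.9% and 33.2% of features. ARO9, encoding an aminotransferase of aromatic amino acid breakdown, was at 503, 340 and 631 CPM in treated and at 5.98, 5.33 and 4.61 CPM in untreated wild-type cells, whereas it was at 9.62, 9.26 and 7.21 CPM in treated and at 6.41, 5.86 and 6.56 CPM in untreated ups1Δ cells. It had the largest rise of all the pathway genes examined in wild-type cells (log2 fold change 6.51, SE 0.28, adjusted p = 1.31e-07) and the largest difference between the responses (-6.05, SE 0.44, adjusted p = 1.84e-07). ARG7, encoding the ornithine acetyltransferase of arginine synthesis, rose by 2.72 (SE 0.17) in wild-type cells, and PCL5, encoding the cyclin that directs Pho85 to Gcn4 for its turnover and itself a Gcn4 target, rose by 2.22 (SE 0.10). BAT2, a branched-chain aminotransferase gene, rose by 1.94 (SE 0.13) and GDH3, a glutamate dehydrogenase gene, by 2.45 (SE 0.16), whereas SER2, encoding phosphoserine phosphatase, fell by 2.12 (SE 0.12). Their responses were lower in ups1Δ cells for ARG7 (-3.01), PCL5 (-2.05), GDH3 (-1.98) and BAT2 (-1.84), and higher for the glutamate dehydrogenase gene GDH1 (1.70).

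In untreated cells 10 of these genes were higher and 9 lower in ups1Δ than in wild-type cells, close to the 26.5% and 25.8% of all features, with GDH3 (2.73), PCL5 (1.42), BAT2 (1.26) and SER3 (1.12) above 1 on the log2 scale. PCL5 was at 272, 258 and 256 CPM in untreated ups1Δ and at 103, 101 and 96.4 CPM in untreated wild-type cells. With tunicamycin 10 were higher and 13 lower in ups1Δ cells, against 32.7% and 33.6% of features, among them ARO9 (-5.81), ARG7 (-2.07), the glutamate synthase gene GLT1 (-1.80), SER33 (-1.08), SER2 (1.06) and GDH1 (1.33). GCN2, which encodes the kinase upstream of GCN4 translation, rose with tunicamycin in wild-type cells (0.53, SE 0.08, adjusted p = 2.48e-04), and was at 81.9, 91.8 and 87.2 CPM in treated and at 90.6, 88.4 and 84.0 CPM in untreated ups1Δ cells. GCN1, GCN20 and GCN3, whose products act with Gcn2 or in the initiation factor it controls, fell in wild-type cells by 0.91, 0.81 and 1.28.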

How the data were processed

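RNA from poly(A) libraries of 12 samples was quantified by the authors with kallisto against sacCer3 transcripts, and the deposited table holds the estimated counts per feature, already whole numbers and not normalized. Transcript versions and strand setting are not given in the sources used here. The 4 deposited DESeq2 tables (normalized counts, fold changes, standard errors and p-values) were not used. The table held 0 columns of other samples.

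The members and gene lists were chosen with earlier results of these data known. Features were filtered with edgeR's filterByExpr and scaled by TMM, and each comparison was fitted on its own 6 libraries with edgeR's quasi-likelihood test (edgeR 4.0.16, limma 3.58.1, R 4.3.3), whereas the interaction was fitted on all 12. P-values were adjusted by the Benjamini-Hochberg method over all features tested, with a threshold of 0.05. The authors tested with DESeq2, which was run here as an alternative (DESeq2 1.42.0). Values per library were given for GCN4, HIS3, the isoenzymes ARO3, ARO4, LEU4 and LEU9, and, in each comparison, the 3 members with the largest increase and the 3 with the largest decrease among those called, without overlap of the groups in pairwise comparisons. Other members were added where they complete a pathway. For 1 member, counted in the totals and medians, no values are reported here, and it is left out of the figures. Other pathway genes were named if called with an absolute log2 value of 1 or more, up to 6 per comparison. The GCN genes were added after their values were seen. Only the wild-type tunicamycin and interaction fits were also run on simulated counts, in which far fewer genes were changed than were called here. That run does not check the calls reported here. Counts in 1 library limit precision as sampling error, and p-values measure the spread between these replicates only.

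Sequences were read from RefSeq R64 with Python 3.11.15, pandas 2.3.3 and Biopython 1.88, and figures were drawn with matplotlib 3.10.9. Coding rather than protein sequences were compared between isoenzymes. Alternatives were other scalings and filters, DESeq2, all 12 libraries in 1 fit, a replicate block, stricter thresholds and leaving out each library.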

Additional observations from a re-analysis of the deposited data

Results flagged for a closer look

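The response to tunicamycin differed between ups1Δ and wild-type cells in 29 of the 37 genes, by the interaction test in edgeR at an adjusted p under 0.05, against 66.04% of all 5828 features tested. All but 1 are given here, as the log2 response in ups1Δ cells minus that in wild-type cells. Among arginine genes they were -3.14 for ARG56, -2.59 for ARG4, -2.57 for ARG3, -2.40 for ARG1, -1.93 for CPA1 and -0.66 for ARG8. Among histidine genes they were -2.55 for HIS4, -2.53 for HIS5, -2.08 for HIS3, -1.01 for HIS7, -1.01 for HIS2 and 0.41 for HIS6. Among aromatic genes they were -1.29 for ARO3, -1.18 for ARO1, -1.14 for TRP3, -1.09 for TRP4, -1.03 for TRP5, -0.73 for TRP2 and 1.78 for ARO7. Among branched-chain genes they were -1.61 for LEU4, -1.09 for ILV6, 1.01 for LEU1 and 1.19 for LEU9. In the aspartate family they were -1.63 for HOM3, -1.15 for HOM2, 0.40 for HOM6 and 0.46 for THR1, and GCN4 had 0.90. The genotypes also differed in mating type and markers, which cannot be told apart from the deletion.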

How the results depend on the processing

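Under every alternative with the same threshold, 16 of 22 calls between untreated genotypes, 21 of 30 between treated genotypes, 27 of 33 for tunicamycin in wild-type cells, 4 of 10 in ups1Δ cells and 25 of 29 interactions were kept. With library size only, 2 genes were higher between treated genotypes, 5 fell in wild-type cells, 7 rose in ups1Δ cells and 4 had a higher response, and ARO2 (0.032), ARO4 (0.072) and ILV1 (0.23) changed sign in wild-type cells. DESeq2 gave 12 genes that fell in ups1Δ cells, and the fit of all 12 libraries gave 0 that rose there. With a change of at least 1 on the log2 scale also required, the counts higher and lower were 5 and 0 between untreated genotypes, 0 and 11 between treated genotypes, 13 and 3 in wild-type cells and 0 and 0 in ups1Δ cells, with 3 higher responses. At an adjusted p under 0.01, 2 were higher between treated genotypes and 0 rose and 4 fell in ups1Δ cells. TGACTCA was found before 45.9% of the genes. TGASTCA gives the same matches by definition when both strands are searched, so it was no further check. Leaving out each library gave 14 to 22 higher and 4 to 5 lower between untreated genotypes, 2 to 7 and 19 to 25 between treated genotypes, 22 to 23 and 10 to 11 in wild-type cells, 0 to 3 and 4 to 17 in ups1Δ cells, and 5 to 7 and 21 to 23 for the interaction. The labels do not say whether same-numbered replicates were paired. Their deviations from the group means had correlations of -0.24 to 0.108, which cannot decide this. Between untreated genotypes these were 0.033 to 0.0989, and 5 of 6 libraries correlated best with their own number. That count was 3 of 6 between treated genotypes, 2 of 6 for tunicamycin in wild-type cells and 0 of 6 in ups1Δ cells. With a replicate block, 1 gene rose and 5 fell in ups1Δ cells, and 18 and 5 differed between untreated genotypes. It gave 5 and 25 between treated genotypes, 22 and 10 in wild-type cells and 7 and 22 in the interaction. The causes of these changes were not tested.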
